A study of Saccharomyces cerevisiae with 2 samples.

Results

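VPS genes of the yeast Saccharomyces cerevisiae take their name from vacuolar protein sorting, the delivery of proteins to the vacuole, and the abundance of the corresponding deletion strains was compared between a pool that overexpressed LCD1 and a control pool. All genes whose platform symbol is VPS followed by a digit were taken, without VPS71 and VPS72, which encode subunits of a chromatin remodeller. This gave 39 strains of the 5325 named strains on the arrays, and their genes lie on 12 chromosomes. By the complex that their product belongs to, 8 were ESCRT strains, 4 retromer, 5 HOPS/CORVET, 4 GARP and 4 PI3-kinase strains, and 14 belonged to none of these.

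The LCD1 pool carried a plasmid with LCD1 under the galactose-inducible GAL1 promoter, and the control pool carried a control plasmid, both with the URA3 marker. The Lcd1 protein (Ddc2) binds Mec1, the kinase at the head of the DNA damage and replication checkpoint. Both pools came from the same pool of 5896 heterozygous diploid knockout strains, were sporulated, and were grown as haploids for 3 days at 30 °C with 2% galactose as the carbon source. Each strain has 1 gene replaced by a cassette with a pair of short DNA tags, which were amplified from genomic DNA of each pool and hybridised together to 1 tag array, in 2 experiments called array 1 and array 2. The series title names synthetic lethality with LCD1 overexpression as the question.

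Values are given as log2 of LCD1 pool over control pool, which is the likely direction, so that a value below 0 means fewer tags of that strain in the LCD1 pool. Which dye was the numerator of the deposited ratio is not given in the sources used here. On both arrays the control pool was labelled with Cy5 and the LCD1 pool with Cy3, and the sign was turned because the tags of the LCD1 deletion strain, which can grow only with the LCD1 plasmid, had deposited ratios of 0.05 and 0.03 at the first tag and 0.44 and 0.73 at the second. After turning, the LCD1 strain stood at 2.62 on array 1 and 2.64 on array 2. Were the ratio the other way round, all signs below would turn. Dye and pool cannot be told apart, because no array had the dyes swapped.

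The vacuole is the degradative compartment of yeast, and newly made hydrolases reach it from the Golgi by way of endosomes. ESCRT complexes sort ubiquitinated membrane proteins into vesicles inside the endosome, retromer returns sorting receptors to the Golgi, CORVET and HOPS tether membranes for fusion at endosomes and at the vacuole, and GARP receives returning vesicles at the Golgi. A phosphatidylinositol 3-kinase built around Vps34 makes the lipid that marks endosomes for several of these proteins. Loss of most VPS genes leaves yeast viable, with vacuolar hydrolases partly secreted.

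Most VPS strains stood close to the middle of all strains. Their mean log2 ratios ran from -1.15 for VPS36 to 1.07 for VPS17, with a median of 0.178 and quartiles of -0.06 and 0.32, beside a median of 0.0362 and quartiles of -0.20 and 0.29 over all 5325 strains. Of the 39, 27 had a mean above 0 and 12 below, or 69.2% above and 30.8% below, where 54.1% of all strains were above 0 and 45.9% below. On both arrays 18 VPS strains (46.2%) were above 0 and 9 (23.1%) below, against 37.7% and 34% of all strains. The count of 27 above 0 was 22 with the first tag alone, 24 with the second tag alone, 26 after scale normalization and 31 without centring. For these settings no share of all strains is given here, and without centring the median of all strains moved to 0.161. On array 1 alone 24 of the 39 were above 0 and on array 2 alone 24, against 2800 and 2720 of the 5325 strains.

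No VPS strain was at least 2-fold lower or at least 2-fold higher on both arrays, a size that 1.82% of all strains reached on the lower side and 0.695% on the higher side. At 1.5-fold, VPS36 passed on the lower side and VPS55 on the higher side, 2.56% of the members each, against 4.34% and 3.87% of all strains. On both tags of both arrays 0 VPS strains were 2-fold apart, against 0.377% of all strains lower and 0.151% higher. By limma, 0 of the 39 had an adjusted p under 0.05, and 0% of all strains did (lowest over all strains 0.0941). The LCD1 strain, at 2.62 and 2.64, stood at that lowest adjusted p, so limma did not call it either. An unadjusted p under 0.05 was reached in limma by 3 lower VPS strains (VPS36, VPS25 and VPS9) and 3 higher (VPS55, VPS13 and VPS1), or 7.69% each, against 10.8% and 11.6% of all strains. A limma fit of the 4 tag values called 0 VPS strains, against 0.263% of all strains lower and 0.188% higher. The share of VPS strains past each of these limits was at or below that of all strains. All strains include some without an essential gene, such as the splicing gene CWC25, whose deletion haploids should grow in neither pool. Such strains were not taken out of any share or median of all strains given here, while most VPS strains are viable. A comparison with viable strains alone was not made, so these shares do not tell how VPS strains stand among viable strains. The p-values rest on the spread between 2 arrays, moderated by limma with the spread over all strains. In the fit of the 4 tag values the spread between tags enters as well. Nothing in the labels tells whether the arrays came from separate cultures, so a spread between cultures may not be measured.

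**Figure D1:**
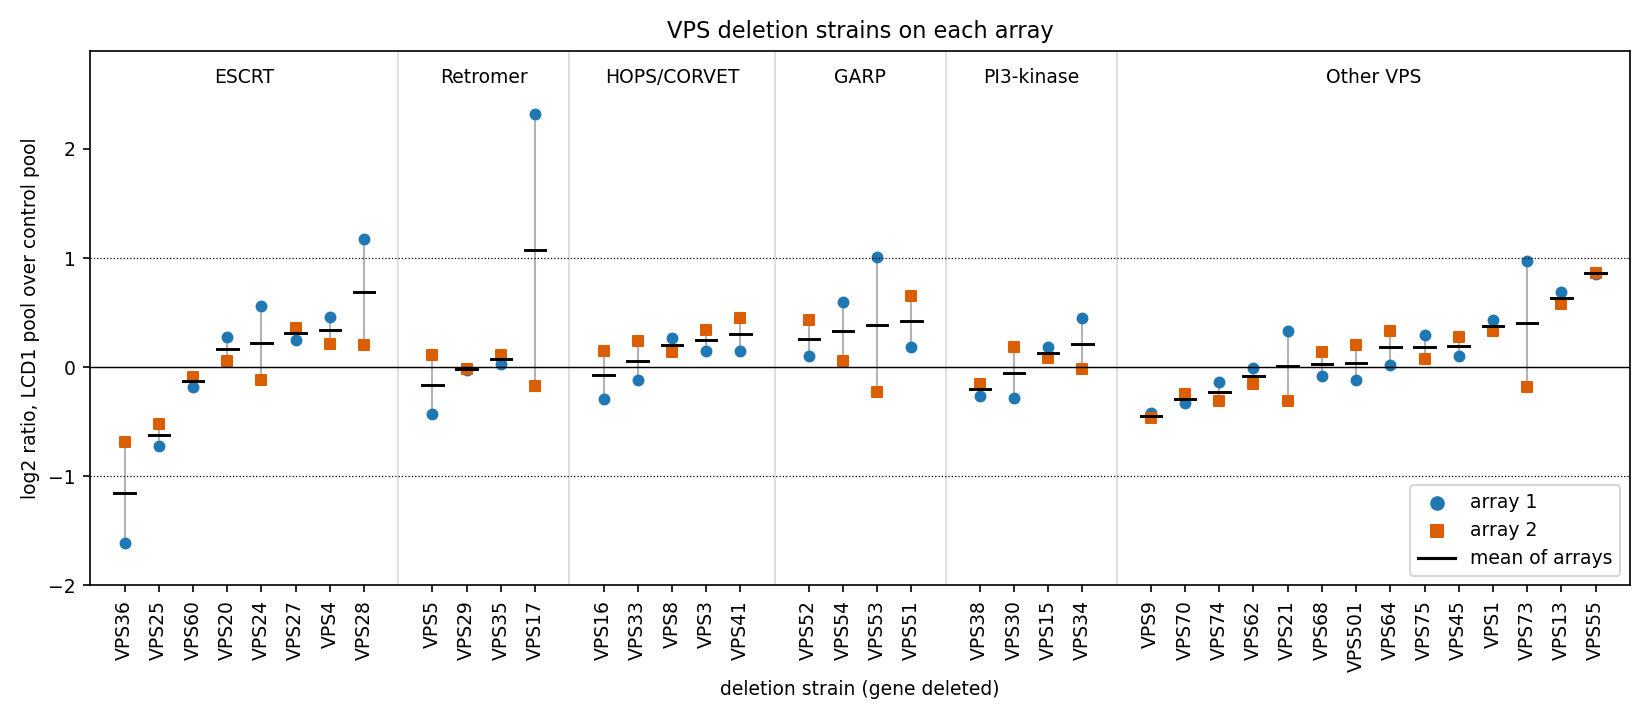
Log2 ratio, LCD1 pool over control pool (vertical axis), for each of the 39 VPS deletion strains (horizontal axis, by complex). Circles are array 1, squares array 2, black bars the mean of the arrays and dotted lines a 2-fold difference; VPS17 at 2.32 and -0.17 shows the widest gap, and VPS55 at 0.85 and 0.86 lies high on both arrays.

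The ESCRT strains spread most. Their median was 0.196, with 3 of 8 (37.5%) below 0 and 5 (62.5%) above, against 45.9% and 54.1% of all strains. The lowest and the third highest of the 39 VPS strains were both among them. ESCRT-II is a complex of Vps22 (Snf8), Vps25 and Vps36 that links the early ESCRT complexes to ESCRT-III, and its VPS-named strains were the 2 lowest of all VPS strains. VPS36 read -1.61 on array 1 and -0.69 on array 2 (mean -1.15 ± 0.651, SD, n = 2, limma p 0.0197, adjusted p 0.171), which ranked 113 from the lowest of 5325. VPS25 read -0.72 and -0.52 (mean -0.62 ± 0.139, limma p 0.0136, adjusted p 0.158). Both strains were below 0 on both arrays, and the array values of VPS25 lay closer together than those of VPS36.

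In both strains the first tag carried the value. Both had 1 feature per tag, so each tag value rests on 1 spot per array. For VPS36 the values at the first tag were -3.01 on array 1 and -1.54 on array 2, and at the second -0.20 and 0.17. These first-tag values correspond to deposited ratios of 7.61 and 2.74, and the second-tag values to 1.02 and 0.80. VPS25 had -2.38 and -0.80 at the first tag, with 0.95 and -0.24 at the second. VPS36 was the 1 VPS strain at least 2-fold lower at the first tag on both arrays, 2.56% of the members against 5.07% of all strains, and at the second tag 0 were, against 0.565% of all strains.

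The other ESCRT strains were at or above 0, or close below it. VPS28, of the ESCRT-I complex that recognises ubiquitinated cargo, read 1.17 on array 1 and 0.20 on array 2 (mean 0.69 ± 0.684), its highest tag value being 1.43 at the second tag of array 1. VPS27, of ESCRT-0, which binds the endosomal lipid and ubiquitin, read 0.25 and 0.36. The strain without VPS4, the ATPase that takes ESCRT-III polymers apart, read 0.46 and 0.21. These 3 strains were above 0 on both arrays, and the adjusted p of each was 0.266 or higher by limma.

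ESCRT-III forms the filaments that cut vesicles from the membrane, and its VPS-named strains stood near 0. VPS20 read 0.28 and 0.06, VPS24 0.56 and -0.12, and VPS60, an accessory member of the same family, -0.18 and -0.09. The array means of VPS20 hid tags on opposite sides: on array 1 the first tag read -1.91 and the second 2.47, against -0.05 and 0.17 on array 2. For VPS60 the 4 tag values lay between -0.27 and 0.08.

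The value of VPS4 rested partly on single spots. This strain had 6 features for each tag, and on array 1 those of the second tag ran from -0.41 to 4.89, with 1.95 as the second highest and an SD of 2.12. With the median of the features in place of their mean, VPS4 stood at 0.13, against 0.34 with the mean. VPS27 showed a like spread at the second tag of array 1, from -0.49 to 3.01, but its value with the median of the features was 0.30, against 0.31 with the mean. On array 1 the tags of VPS27 lay on opposite sides, with -0.42 at the first and 0.93 at the second. On array 2 they read 0.51 and 0.21.

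**Figure D2:**
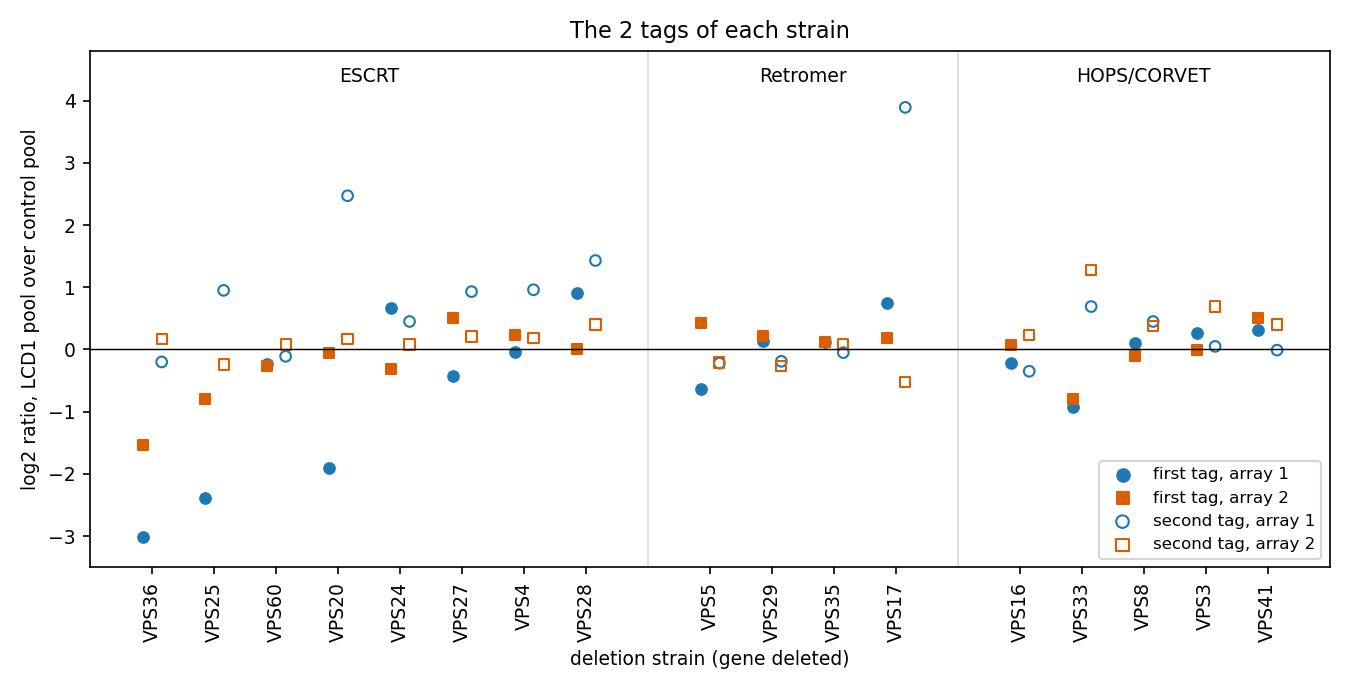
Log2 ratios of the first tag (filled) and the second tag (open) on array 1 (circles) and array 2 (squares) for the ESCRT, retromer and HOPS/CORVET strains, LCD1 pool over control pool. The low values of VPS36 and VPS25 sit at the first tag, and the high value of VPS17 is its second tag on array 1, at 3.89.

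Retromer strains stood near 0, with 1 exception. The strain without VPS35, the scaffold of the cargo-binding trimer, read 0.03 on array 1 and 0.11 on array 2, and that without VPS29, another subunit of the trimer, read -0.03 and -0.02. Both had 6 features per tag, and their tag values lay between -0.27 and 0.22. VPS5 and VPS17 encode the sorting nexin dimer that bends the membrane. VPS5 read -0.43 and 0.11 (mean -0.16 ± 0.380), and VPS17 read 2.32 and -0.17 (mean 1.07 ± 1.76, limma p 0.203, adjusted p 0.401). The high mean of VPS17 came from array 1, where its second tag read 3.89, a deposited ratio of 0.06, while the other 3 tag values were 0.75, 0.18 and -0.52. The median of the 4 retromer strains was 0.0222, with 2 above 0 and 2 below.

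The strain without VPS26, the third subunit of the trimer, is listed under its other name PEP8 and read 0.29 on array 1 and -0.57 on array 2. VPS501, whose product resembles Vps5, read -0.12 and 0.20. Both had opposite signs on the 2 arrays, as VPS5 and VPS17 did.

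HOPS/CORVET strains had the narrowest range of the 3 classes, from -0.07 for VPS16 to 0.30 for VPS41, with a median of 0.204. Of the 5, 4 (80%) had a mean above 0, against 54.1% of all strains. VPS16 and VPS33 encode parts of the core that both tethers share, Vps33 being the subunit that binds SNARE proteins. VPS16 read -0.29 on array 1 and 0.15 on array 2, and VPS33 read -0.12 and 0.24. The CORVET-specific strains VPS3 (0.15 and 0.34) and VPS8 (0.27 and 0.14) and the HOPS-specific strain VPS41 (0.15 and 0.45) were above 0 on both arrays. With the first tag alone 2 of the 5 were above 0, and no member had an adjusted p under 0.311 by limma.

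The 3 core and HOPS genes under other names gave means from -0.08 to 0.29. PEP3 read 0.31 and -0.09, PEP5 -0.06 and 0.64, and VAM6, which is VPS39, -0.26 and 0.10. Over the 8 strains the median was 0.157, with 0 below 0 and 3 above 0 on both arrays, against 34% and 37.7% of all strains.

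Set side by side, the class medians were 0.196 for ESCRT, 0.0222 for retromer and 0.204 for HOPS/CORVET. On array 1 they were 0.266, 0.003 and 0.151, and on array 2 -0.015, 0.042 and 0.244, so the order of the classes was not the same on the arrays. With the first tag alone they were -0.105, 0.147 and -0.00598, and with the second tag alone 0.463, -0.0961 and 0.369. The ranges overlapped, from -1.15 to 0.69 for ESCRT, from -0.16 to 1.07 for retromer and from -0.07 to 0.30 for HOPS/CORVET. The differences between classes were not tested, since strains of a class are not replicates of a condition.

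**Figure D3:**
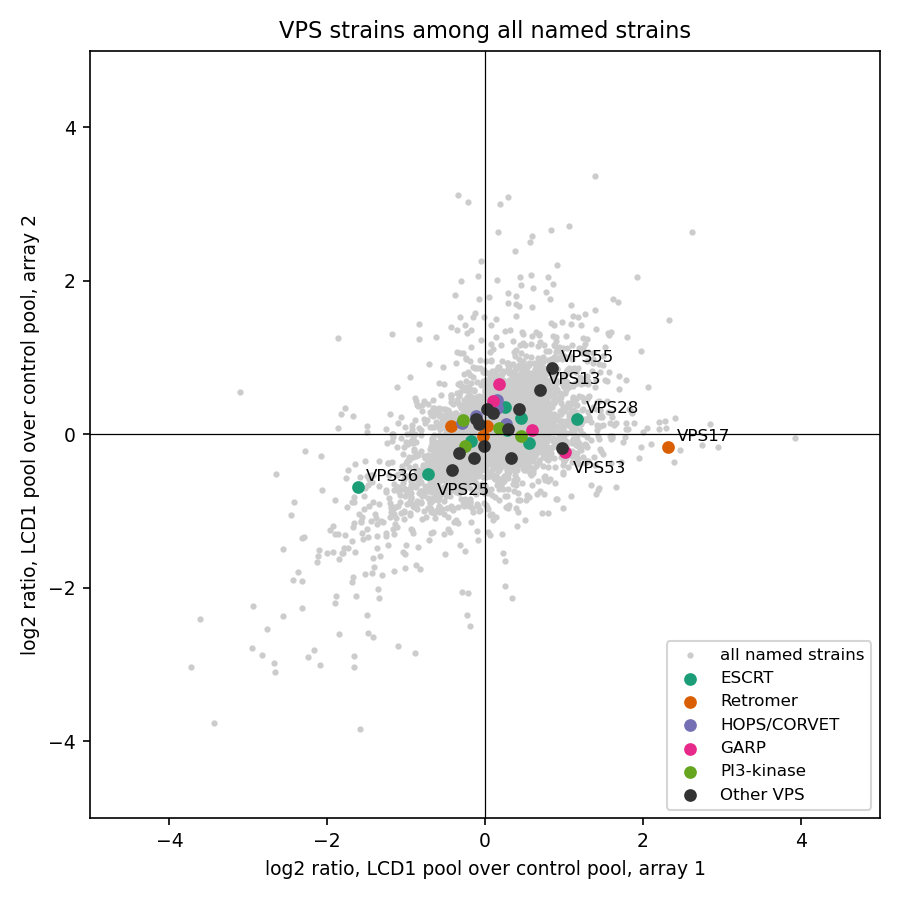
Log2 ratio on array 2 (vertical axis) against array 1 (horizontal axis), LCD1 pool over control pool, for all named strains (grey) and the VPS strains (coloured by complex). Most VPS strains sit in the dense centre; VPS36 lies low on both arrays, VPS55 and VPS13 lie high on both, and VPS17, VPS28 and VPS53 are high on array 1 alone.

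All 4 GARP strains had a mean above 0, against 54.1% of all strains. Their median was 0.36, with a range from 0.26 to 0.42. GARP is a tether at the trans-Golgi for vesicles that come back from endosomes. VPS51 read 0.18 on array 1 and 0.65 on array 2, VPS52 0.10 and 0.43, and VPS54 0.60 and 0.06, all above 0 on both arrays. VPS53 read 1.01 and -0.23 (mean 0.39 ± 0.878), its first tag being at 1.86 on array 1 and -0.72 on array 2. The limma adjusted p values of the 4 lay between 0.272 and 0.53. The means of all 4 were above 0 with either tag alone and without centring as well.

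Of the strains that act with GARP, those without the GTPase YPT6 (-0.24 and 0.10) and its exchange factor subunit RGP1 (-0.17 and -0.03) stood close to 0. The strain without RIC1, the other subunit of that exchange factor, read 1.44 on array 1 and -0.70 on array 2. Its first tag was at -1.58 and -1.54 and its second at 4.47 and 0.13, so the arrays repeated at the first tag and not at the second.

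The PI3-kinase strains stood near 0. VPS34 encodes the kinase and VPS15 its regulatory partner, and both strains were slightly above 0 on average, VPS34 at 0.45 on array 1 and -0.02 on array 2 and VPS15 at 0.18 and 0.08. VPS30 (Atg6), shared by the autophagy and sorting forms of the complex, read -0.28 and 0.18. VPS38, of the sorting form, read -0.26 and -0.15, with all 4 tag values between -0.34 and -0.14. ATG14, of the autophagy form, read -0.46 on both arrays (limma p 0.0247, adjusted p 0.181).

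VPS15 showed tags that disagreed repeatably. At its first tag it stood at -0.36 on array 1 and -0.55 on array 2, at its second at 0.72 on both. The 6 features of each tag did not overlap between the tags, running on array 1 from -0.58 to -0.04 for the first and from 0.61 to 0.92 for the second, and on array 2 from -0.67 to -0.17 and from 0.61 to 0.88. VPS33 behaved alike, with -0.93 and -0.79 at the first tag and 0.69 and 1.28 at the second. With VPS20, 3 VPS strains (7.69%) had the first tag below and the second above 0 on both arrays, against 7.59% of all strains. The reverse held for 4 strains (10.3%), VPS21, VPS29, VPS64 and VPS75, against 8.04%.

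Among the 14 remaining strains, 10 (71.4%) had a mean above 0, against 54.1% of all strains, and the median was 0.109. VPS55, whose product acts with Vps68 in traffic from late endosomes to the vacuole, was the highest VPS strain that repeated, at 0.85 on array 1 and 0.86 on array 2 (mean 0.86 ± 0.00152, limma p 0.00368, adjusted p 0.121), and ranked 189 from the highest. Its first tag read 1.39 and 1.13 and its second 0.32 and 0.58, so all 4 values were above 0. VPS55 had 1 feature per tag. The strain without its partner VPS68 read -0.08 and 0.14. The partners therefore did not read alike, and the difference between them was not tested.

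VPS13, a lipid transfer protein gene, came next among strains that repeated, at 0.69 and 0.58 (mean 0.63 ± 0.0811, limma p 0.0106, adjusted p 0.147). The first tag carried this value, at 1.22 on array 1 and 1.11 on array 2, while the second read 0.17 and 0.04. VPS13 and VPS55 were the 2 VPS strains at least 2-fold higher at the first tag on both arrays, 5.13% of the members against 1.84% of all strains. At the second tag 0 were, against 1.51%. The strain without the dynamin-like GTPase VPS1 read 0.43 and 0.33 (limma p 0.0452, adjusted p 0.216).

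On the lower side, VPS9 read -0.42 on array 1 and -0.47 on array 2 (mean -0.45 ± 0.0358, limma p 0.0277, adjusted p 0.186). Vps9 is the exchange factor that activates the endosomal Rab GTPase Vps21. The strain without VPS21 itself read 0.33 and -0.31, its first tag on array 1 standing at 0.93 over 6 features that ran from -0.03 to 2.10. VPS45, whose product binds the SNARE proteins of endosomal fusion, read 0.10 and 0.28. Of the GTPases related to Vps21, the strain without YPT53 read -0.53 and -0.71 and that without YPT52 -0.06 and -0.08.

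All 4 tag values had the same sign in 8 VPS strains. VPS9, VPS38, VPS70 and VPS74 were below 0 at every tag, and VPS1, VPS13, VPS54 and VPS55 above 0, 10.3% of the members each, against 16.4% and 16.8% of all strains. VPS70 read -0.33 and -0.25, and VPS74, whose product retains glycosyltransferases in the Golgi, read -0.14 and -0.31. Among the remaining strains VPS73 read 0.97 on array 1 and -0.18 on array 2, VPS64 (also named FAR9) 0.02 and 0.33, and VPS62 -0.01 and -0.15.

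VPS75 is a VPS gene by name whose product is a histone chaperone that works with the acetyltransferase Rtt109. Its strain read 0.29 on array 1 and 0.07 on array 2 (mean 0.18 ± 0.153, limma p 0.257, adjusted p 0.45), within the quartiles of all strains. By the gene table of assembly R64, 3 VPS genes overlap another gene, and the strains of both genes were measured. VPS75 overlaps CWC25 (1.16 and -0.08), an essential splicing gene whose deletion haploids should grow in neither pool, VPS38 overlaps DCR2 (0.11 and 0.01) and VPS5 overlaps VAM10 (-0.31 and 0.34).

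Strains without ESCRT genes that go by other names were mostly below 0. Of 13 such strains 10 (76.9%) had a mean below 0, against 45.9% of all strains. The median was -0.222, against 0.196 for the 8 VPS-named ones, a difference that was not tested. The strain without SNF8, the third ESCRT-II subunit, read -0.72 on array 1 and -0.96 on array 2 (mean -0.84 ± 0.173, limma p 0.00599, adjusted p 0.133). Unlike VPS36 and VPS25, it was below 0 at both tags, with -0.62 and -1.30 at the first and -0.82 and -0.62 at the second. With it, all 3 ESCRT-II strains were below 0 on both arrays, with a median of -0.839. This grouping by ESCRT subcomplex was made after the values were seen and has no test.

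Further ESCRT partners below 0 on both arrays included the ESCRT-III genes SNF7 and DID4. SNF7, the main filament subunit, read -0.52 on array 1, from the first tag alone because the second had no value there. On array 2 it read -1.04, with -1.88 at the first tag and -0.21 at the second. DID4, which is VPS2, read -0.39 and -0.56, the Vps4 cofactor gene VTA1 -0.50 and -0.36, and BRO1, which recruits the deubiquitinase Doa4, -0.58 and -0.31. For BRO1 the first tag carried the value, at -1.18 and -0.52, while the second read 0.02 and -0.09. DID4 had -0.06 and -1.09 at the first tag and -0.73 and -0.03 at the second. For VTA1 the 4 tag values lay between -0.55 and -0.23. In limma 5 of the 13 (38.5%) were lower and 0 higher with p under 0.05 before adjustment, against 10.8% and 11.6% of all strains, and 0 after it, as among all strains. In the limma fit of the 4 tag values 2 of the 13 (15.4%), SNF8 and VTA1, were lower at that limit before adjustment and 0 higher. For that fit no share of all strains is given here. MVB12, of ESCRT-I, went the other way on array 1 at 2.20, with 0.16 on array 2.

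Over the 21 ESCRT strains under either name, 12 were below 0 and 7 above 0 on both arrays, and the median was -0.133. Of all strains 34% were below 0 and 37.7% above 0 on both arrays. The ESCRT-I median was higher than that of ESCRT-II, at 0.326 over VPS28, STP22, SRN2 and MVB12, although on array 2 it was 0.061. The ESCRT-I strains were split, with VPS28 and MVB12 above 0 on both arrays. STP22 (-0.03 and -0.04) and SRN2 (-0.29 and -0.16) were below 0 on both. The core ESCRT-III strains VPS20, VPS24, SNF7 and DID4 had a median of -0.153, from -0.78 to 0.22. The difference between these subcomplexes was not tested.

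The other 29 partners, most of which act in retromer, HOPS/CORVET, GARP and membrane fusion, had a median of 0.141. The list also holds ATG14 and the genes FAB1, VAC7, VAC14 and FIG4, which act on phosphatidylinositol lipids. Of the 29 partners, 17 (58.6%) had a mean above 0, close to the 54.1% of all strains. On both arrays 0 of them were 2-fold apart, against 1.82% of all strains lower and 0.695% higher. The second tag alone gave 1 of them (3.45%) 2-fold higher, against 1.51% of all strains. With the first tag alone 1 was higher and 1 lower (3.45% each), against 1.84% and 5.07%. Scale normalization and no centring each gave 1 higher, and for these settings no share of all strains is given here. The highest, YPT7, the vacuolar Rab GTPase that HOPS binds, read 0.44 on array 1 and 2.05 on array 2, its second tag on array 2 standing at 3.21. VAM7, a vacuolar SNARE gene, read 0.58 and 1.18, and TLG1, a SNARE gene of the Golgi and endosomes, 1.10 and 0.98. For VAM7 the first tag carried the value, at 1.17 and 2.20, while the second read 0 and 0.16. For TLG1 the second tag was the higher, at 2.47 and 1.24, with -0.28 and 0.72 at the first. The lowest was YPT53, given above.

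**Figure D4:**
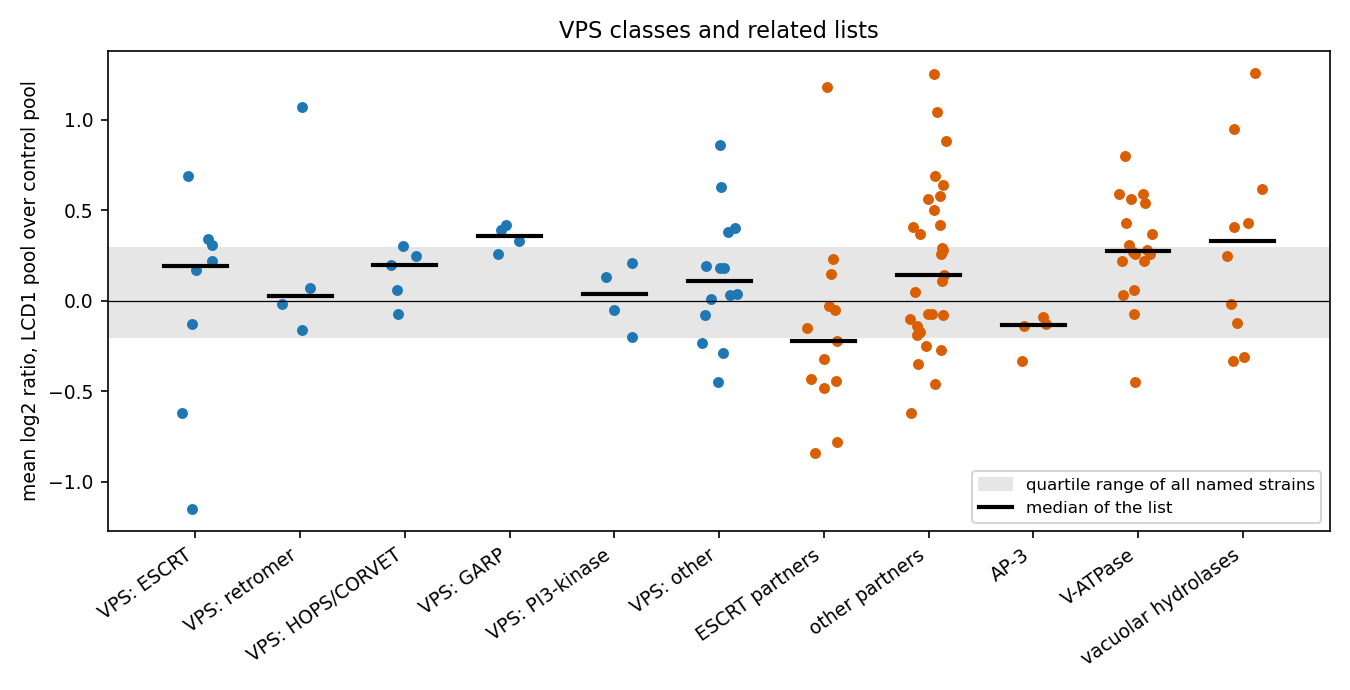
Mean log2 ratio, LCD1 pool over control pool (vertical axis), for each strain of the VPS classes (blue) and of the related lists (orange), with the median of each list as a bar and the range between the quartiles of all named strains as a grey band from -0.20 to 0.29. ESCRT partners centre at -0.222, V-ATPase strains at 0.279 and vacuolar hydrolase strains at 0.33.

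Genes of other vacuolar functions were set beside the VPS strains. Of 18 strains without subunits or assembly factors of the V-ATPase, the proton pump of the vacuole, 16 had a mean above 0, with a median of 0.279, and 12 were above 0 on both arrays. These are 88.9% and 66.7% of the V-ATPase strains, against 54.1% and 37.7% of all strains. In limma 7 of the 18 (38.9%) were higher and 1 (5.56%) lower with p under 0.05 before adjustment, and 0 after it. Of all strains 11.6% were higher and 10.8% lower before adjustment. VMA3 was the highest at 0.78 and 0.81, and STV1, the subunit isoform of the Golgi and endosomes, the lowest at -0.39 and -0.50. The 4 strains without the AP-3 adaptor, which carries cargo to the vacuole without passing the endosome, had means from -0.33 to -0.09. On array 1, 2 of these 4 were above 0, and without centring 1 mean was above 0 and the median moved to -0.00623, against -0.131 with it.

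Among 10 strains on the list of vacuolar hydrolases, which also holds the receptor-like gene VTH1, the median was 0.33. On both arrays 6 (60%) were above 0 and 2 (20%) below, against 37.7% and 34% of all strains. In limma 5 of the 10 (50%) were higher and 0 lower with p under 0.05 before adjustment, against 11.6% and 10.8% of all strains. PRB1, vacuolar protease B, read 1.09 on array 1 and 1.44 on array 2 and was the 1 strain of the lists given here that was 2-fold apart on both arrays. That is 10% of the hydrolase strains at least 2-fold higher, against 0.695% of all strains. PRB1 lies on chromosome V close to CAN1, the selection locus of the haploid pools, and VMA3 lies on the same chromosome arm. Whether linkage to that locus bears on their values was not tested. With the first tag alone 3 of the hydrolase strains (30%) were 2-fold higher on both arrays, against 1.84% of all strains. Without centring 2 were, a setting for which no share of all strains is given here. In the limma fit of the 4 tag values the adjusted p of PRB1 was under 0.05, and with 1 value per array it was 0.117. The fit of the 4 tag values counts both tags of an array as separate values although they share 1 pair of pools. The lowest was the strain without the vacuolar alkaline phosphatase PHO8, at -0.39 and -0.26, and that without the aminopeptidase APE1 read -0.36 and -0.27. The strain without PEP4, the protease that activates other hydrolases, read 0.39 and 0.48. That without PRC1, carboxypeptidase Y, the cargo by which many VPS mutants were found, read 0.12 and -0.36.

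VPS strains measured with more spots had smaller differences between the arrays. Of the VPS strains 16 had 6 features per tag and 23 had 1. The median absolute difference between the arrays was 0.161 for the strains with 6 features per tag and 0.325 for those with 1, beside 0.171 for all strains with 6 or more features per tag and 0.229 for all with 1. Differences over 1 between the arrays occurred in 0 of the 16 and in 3 of the 23, VPS17, VPS53 and VPS73. Over the 64 sets of 6 features the SD ran from 0.0484 to 2.12 with a median of 0.156, and 6 of the 7 sets with an SD over 0.5 were on array 1.

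**Figure D5:**
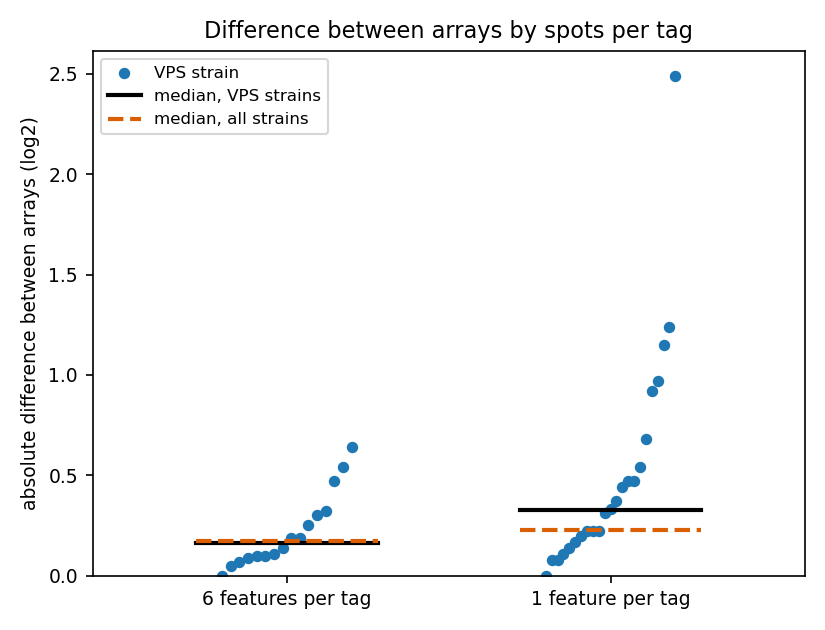
Absolute difference in log2 ratio between array 1 and array 2 (vertical axis) for VPS strains with 6 features per tag and with 1 feature per tag. Points are strains in order of size, black bars the VPS medians (0.161 and 0.325) and dashed bars the medians of all strains with 6 or more features per tag (0.171) and with 1 (0.229).

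Across the 39 VPS strains, Pearson's r between the arrays was 0.306 and Spearman's rho 0.244, beside 0.547 and 0.539 across all strains. Between the tags of a VPS strain, array 1 gave an r of -0.062 with a rho of 0.069, and array 2 an r of -0.137 with a rho of -0.032. Tags agreed little across all strains too, with an r of 0.087 and a rho of 0.172 on array 1 and 0.137 and 0.242 on array 2. These are descriptions across strains, which share the pools and the arrays and are not independent replicates.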

How the data were processed

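Each deposited column holds log2 ratios between the dyes of 1 array, as read from the values: on a linear scale 0 values departed from whole hundredths by over 0.001. Per the labels, the Hopkins tag array was scanned and read with GenePix 5.1. The normalization is not given in the sources used here, nor is the numerator dye. Both columns had a median of -0.136. No intensities were used, so signal over background is unknown and the number of arrays limits the precision.

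Values were turned in sign. Features of a gene, named through the platform annotation, were averaged within each tag block (feature numbers up to 10971, and above), the block medians were subtracted array by array, and the mean of both tags was taken. Strains were tested against 0 with limma 3.58.1 in R 4.3.3 (lmFit and eBayes, two-sided, Benjamini-Hochberg over 5325 strains, 1 residual and 2.42 prior degrees of freedom). On simulated data the estimated log2 ratios and the 2-fold rule were checked, and the p-values were not. SDs are over 2 arrays. All VPS strains were described; partner and vacuolar genes were named when past 2-fold, lowest or highest, and further ones were named after their values were seen. Members and lists were chosen with earlier results of these data known. All 39 symbols matched the R64 gene table. VMA9, VTH2 and VPS63, which the platform annotation used here does not name, were not analysed here. VMA12 was read as VPH2 and LAP4 as APE1. Alternatives covered centring, tags, scale, feature medians, thresholds and leaving out an array.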

Additional observations from a re-analysis of the deposited data

How the results depend on the processing

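No VPS strain was 2-fold apart on both arrays, without centring, after scale normalization, with feature medians, with the second tag alone or on both tags. The first tag alone gave 1 lower and 2 higher VPS strains and 1.5-fold gave 1 and 1, beside the shares of all strains given above. Leaving out an array gave 0 to 1 lower and 0 to 3 higher, a setting for which no share of all strains is given here. Limma called 0 VPS strains, also on the 4 tag values, which share 2 pairs of pools and gave 14 lower and 10 higher calls over all strains, and 6 at an unadjusted p under 0.05. Without centring the median of all strains moved to 0.161, and list medians were 0.303 for all VPS strains, 0.322 for ESCRT, 0.147 for retromer, 0.329 for HOPS/CORVET, 0.485 for GARP, 0.164 for PI3-kinase, 0.234 for the remaining VPS strains, -0.097 for ESCRT partners, 0.266 for other partners, -0.00623 for AP-3, 0.404 for the V-ATPase and 0.455 for hydrolases. With the first tag alone they were 0.0967 for all VPS strains, -0.105 for ESCRT, 0.147 for retromer, -0.00598 for HOPS/CORVET, 0.209 for GARP, -0.228 for PI3-kinase, -0.0776 for ESCRT partners, 0.358 for the V-ATPase and 0.491 for hydrolases. With the second tag alone they were 0.266, 0.463, -0.0961 and 0.369 for all VPS, ESCRT, retromer and HOPS/CORVET strains, 0.24 for PI3-kinase, -0.0419 for the remaining VPS strains, 0.23 for the V-ATPase and 0.0913 for hydrolases. On 1 array alone the medians ran from 0.105 to 0.151 for all VPS strains, -0.0146 to 0.266 for ESCRT, 0.242 to 0.392 for GARP, -0.0389 to 0.0303 for PI3-kinase, 0.0597 to 0.108 for the remaining VPS strains, -0.238 to -0.129 for ESCRT partners, -0.369 to -0.034 for AP-3, 0.31 to 0.332 for the V-ATPase and 0.264 to 0.37 for hydrolases. The cause of these shifts was not tested. No paired analysis was possible because the 2 arrays form 1 group and each already compares both pools.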
